A study of Mus musculus with 12 samples.

Results

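Transcript levels of 40 genes of glycolysis and of the hypoxia response were followed in D2A1 and D2.OR, a pair of mouse mammary tumor cell lines. D2A1 proliferates in 3D culture, whereas D2.OR becomes growth-arrested there and serves as a model of dormancy. The genes were a fixed list of transporters, enzymes and regulators, chosen with earlier results of these data known. They were matched by gene name, and all 40 were found among the 52550 genes of the files. All 40 also passed the filter on low counts, as did 16823 genes in total. RNA was sequenced from 12 libraries in 4 groups of 3, which were D2A1 in 2D, D2A1 in 3D, D2.OR in 2D and D2.OR in 3D. In 3D, cells were grown on top of Matrigel, a basement-membrane gel, for a week. The study treats each replicate number as a batch, so batch 1 holds replicate 1 of every group. Each RNA sample came from pooled wells, and nothing states that the 3 replicates were separate thaws or passages, so p-values measure the spread between these samples. Both lines are polyploid and arose from separate tumors, and the labels name no treatment or engineered allele, so a difference between them cannot be assigned to dormancy capacity alone. The 3D medium contained horse serum, insulin and hydrocortisone. The study's dormancy assays also kept 2D cells in this 3D medium, but its RNA methods point to the general culture conditions, with high-glucose DMEM and fetal bovine serum. Which of these media the 2D cultures for RNA had is thus not certain, so matrix and medium cannot be told apart in the culture comparisons.

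Glycolysis splits glucose into pyruvate in the cytosol and yields ATP without oxygen. Lactate dehydrogenase turns pyruvate into lactate, which leaves the cell through monocarboxylate transporters, whereas pyruvate dehydrogenase sends it to the mitochondria unless it is inhibited by a pyruvate dehydrogenase kinase (PDK). Under low oxygen the hypoxia-inducible factors (HIF) escape hydroxylation by the EGLN prolyl hydroxylases, accumulate, and raise the transcription of many of these genes. Proliferating tumor cells often run glycolysis at a high rate even when oxygen is present. HIF activity is set mainly at the protein level, which RNA-seq does not measure.

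Library totals ranged from 47589613 to 73325057 expected counts, with a median of 61747090. Levels below are TPM, the authors' values scaled for gene length and library size, and are given in the order of batches 1, 2 and 3. Fold changes are log2 differences from edgeR on the counts, with a standard error (SE) and a p-value adjusted over all 16823 genes. In bulk RNA, a smaller share of expressing cells and less RNA per cell cannot be told apart. The labelled tumor type was checked against markers. The epithelial keratin gene Krt8 was at 700.2 to 1022 TPM in D2.OR in 2D and at 0.87 to 2.02 TPM in D2A1 in 2D, and Epcam did not exceed 0.17 TPM in any D2A1 library, but Krt18, the partner keratin gene, was at 204 to 294 TPM in D2A1 in 2D. The 6 epithelial markers summed to 205 to 297 TPM in D2A1 in 2D and 1160 to 1720 TPM in D2.OR in 2D, and to 94 to 220 TPM and 422 to 877 TPM in 3D. The 5 fibroblast and mesenchymal markers were also higher in D2.OR (4 of 5 in 2D and 5 of 5 in 3D), with sums of 815 to 2580 TPM in D2A1 and 4810 to 6490 TPM in D2.OR in 2D, and 1090 to 3170 TPM and 3420 to 7290 TPM in 3D. The 5 macrophage and leukocyte markers ran the other way, with sums of 6.89 to 32.2 TPM in D2A1 and 2.3 to 5.57 TPM in D2.OR in 2D, and 6.24 to 10.1 TPM and 3.64 to 6.92 TPM in 3D. Nearly all of this sum was Cd68, a lysosomal membrane gene, which was lower in D2.OR in 2D (log2 fold change -2.41, SE 0.62, adjusted p = 0.0103) and did not pass in 3D (log2 fold change -0.55, SE 0.57, adjusted p = 0.439). Csf1r was lower in D2.OR in 3D (log2 fold change -2.61, SE 0.86, adjusted p = 0.0294) but did not exceed 0.53 TPM in any library, and the defining leukocyte gene Ptprc did not exceed 0.05 TPM. Summed endothelial markers stayed at or below 0.63 TPM. The part of these markers in the differences between the lines was not tested.

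The batch 1 libraries stood apart for the listed genes. In a comparison chosen after the values were seen, batch 1 against the mean of batches 2 and 3, 15 of the 40 genes were lower in batch 1 (4.8% of all genes tested) and 2 were higher (8.48% of all genes tested). The lower ones were Slc2a1, Slc16a1, Hk2, Gpi1, Pfkl, Pfkp, Aldoa, Tpi1, Gapdh, Pgk1, Pkm, Ldha, Pfkfb3, Vegfa and Egln3. Among these lower genes Egln3 differed most, by -1.39 on the log2 scale (adjusted p = 0.00518), followed by Pfkfb3 at -1.38 (adjusted p = 0.00413). The 2 higher genes were Aldoc (1.87, adjusted p = 0.0184) and Pdk4 (1.61, adjusted p = 0.00345). The model holds a term for the batch, and results without batch 1 are given where they change a call.

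Of the 18 enzyme genes from hexokinase to lactate dehydrogenase, 13 were lower and 2 higher in D2.OR than in D2A1 in 3D, and 7 were lower and 2 higher in 2D. The difference between the cultures is tested by the interaction given further on, in which no listed gene passed in edgeR with all libraries. In 2D, 8 of the 40 genes were higher in D2.OR (20.0% of the list, against 25.4% of all genes tested) and 13 were lower (32.5%, against 24.4% of all genes tested). In 3D, 9 were higher (22.5%, against 27.7%) and 21 were lower (52.5%, against 26.1%). Because the list was chosen with earlier results known, these shares describe it and do not test it. The median log2 fold change of the list was -0.21 in 2D and -0.75 in 3D, where that of all genes tested was close to 0 (-0.00338 and 0.000517). The shares in 2D lay near those of all genes, so the count in 2D says little about the list. Without the batch term, 6 genes were lower in 2D (21.5% of all genes tested in that fit). The number of lower genes in 2D dropped to 8 without D2.OR 2D replicate 2 (17.3% of all genes) or D2.OR 2D replicate 3 (18.5%), to 7 without batch 2 (10.8%) and to 5 without batch 3 (14.8%). Without batch 1, 14 genes were higher in 2D (28.6% of all genes), and without batch 2, 5 were higher in 3D (17% of all genes).

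**Figure D1:**
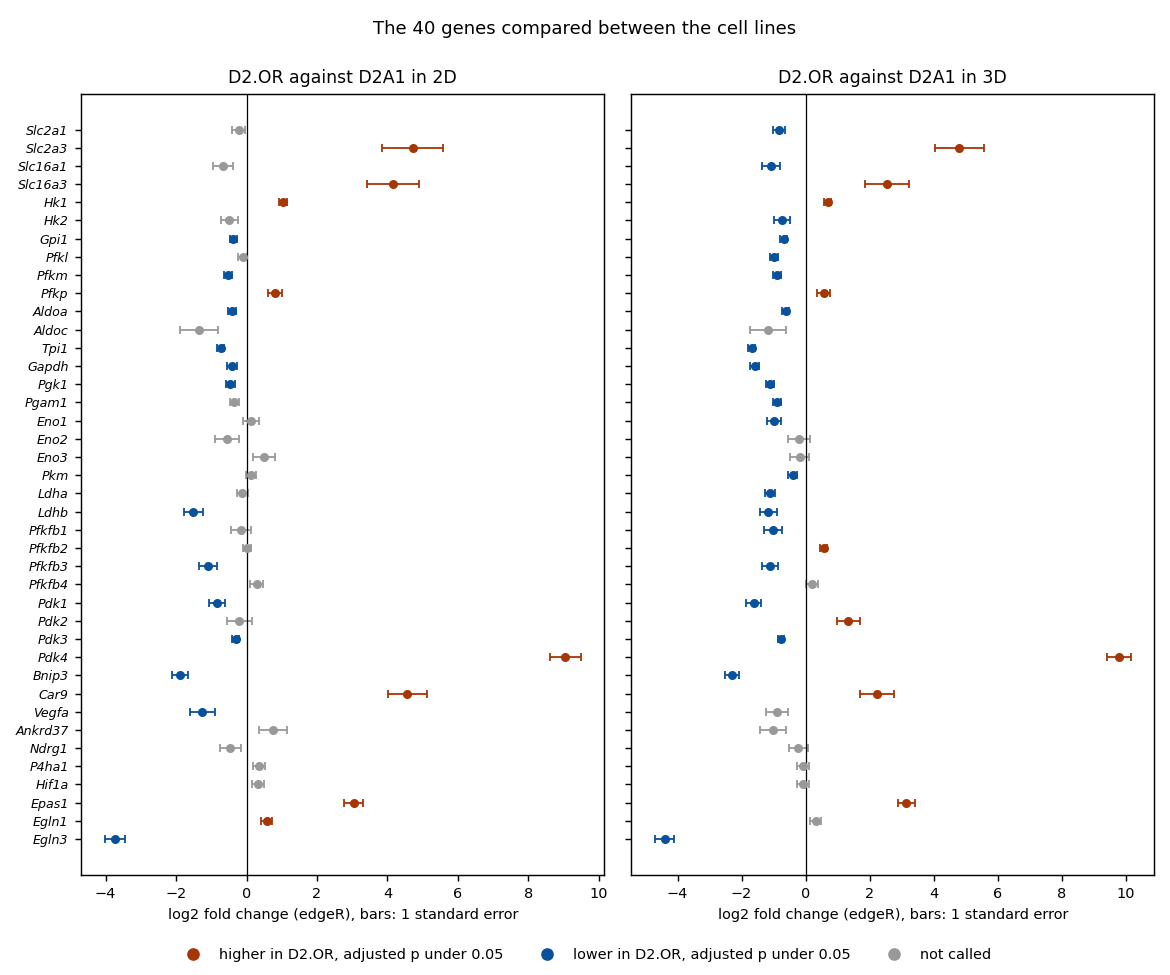
Log2 fold change of D2.OR against D2A1 for the 40 genes, in 2D on the left and in 3D on the right, with 1 standard error from edgeR. Colored points passed an adjusted p of 0.05. The 21 genes that were lower in 3D include most enzyme genes between Gpi1 and Ldhb, and the outermost points in each direction are Pdk4 and Egln3 (log2 fold change -3.73 in 2D and -4.41 in 3D). The 2D point of Pdk4 is a fitted value that depends on the prior count, since D2A1 held at most 2 counts there. On counts scaled for library size, the D2.OR mean was 215 times a floor of 3 counts in D2A1.

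Glucose enters through GLUT transporters, and lactate leaves through the monocarboxylate transporters MCT1 (Slc16a1) and MCT4 (Slc16a3), the latter a known HIF target. Slc2a1, the main glucose transporter gene in both lines, was at 62.3, 105 and 98.8 TPM in D2A1 in 3D and at 51.8, 44.6 and 52.3 TPM in D2.OR in 3D. The groups did not overlap, and the gene was lower in D2.OR (log2 fold change -0.82, SE 0.18, adjusted p = 0.00453); the call was lost without batch 2 or 3 (adjusted p = 0.0667 to 0.087). In 2D the groups overlapped (log2 fold change -0.22, SE 0.18, adjusted p = 0.331). Slc2a3, which encodes the high-affinity transporter GLUT3, was at 0.05, 0.02 and 0.01 TPM in D2A1 and at 0.43, 0.75 and 0.59 TPM in D2.OR in 2D. Its values in 3D were 0.17, 0.04 and 0 TPM in D2A1 and 0.74, 1.89 and 1.76 TPM in D2.OR. D2.OR was higher in 2D (log2 fold change 4.72, SE 0.86, adjusted p = 0.00183) and in 3D (log2 fold change 4.80, SE 0.77, adjusted p = 0.000758), and the 2D call was lost without batch 2 (adjusted p = 0.0572). D2A1 held at most 16 counts of Slc2a3 in a library, so the size of the fold is uncertain, and the gene made up 2.91% ± 1.36 of the summed TPM of both transporters in D2.OR in 3D (SD, n = 3).

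Slc16a3 and Slc16a1 differed between the lines in opposite directions in 3D. In 2D, Slc16a3 (chr11:120948480-120960868, GRCm38) was at 2.37, 1.99 and 2.71 TPM in D2A1 and at 11.7, 74.9 and 67.7 TPM in D2.OR. Its 3D values were 3.17, 1.2 and 1.13 TPM in D2A1 and at 10.1, 14.9 and 22.9 TPM in D2.OR. Every D2.OR library was above every D2A1 library, and batch 1 was lowest within D2.OR. The gene was higher in D2.OR in 2D (log2 fold change 4.15, SE 0.73, adjusted p = 0.00148) and in 3D (log2 fold change 2.53, SE 0.69, adjusted p = 0.0126), but in 3D the call was lost without batch 2 or 3 or D2A1 3D replicate 2 or 3 (adjusted p = 0.0601 to 0.141). Slc16a1 went the other way in 3D, at 99.6, 149 and 134 TPM in D2A1 and 28.9, 96.8 and 76.3 TPM in D2.OR (log2 fold change -1.08, SE 0.29, adjusted p = 0.0119), a call lost in the fit with no block, and without batch 2 or 3 (adjusted p = 0.0508 to 0.13). In 2D, Slc16a1 was at 86.5, 117 and 93.0 TPM in D2A1 and 26.6, 88.7 and 79.2 TPM in D2.OR and did not pass in edgeR (log2 fold change -0.66, SE 0.29, adjusted p = 0.0862), but it passed in limma on log2(TPM + 1) and in limma on log2(TPM + 0.1) (adjusted p = 0.0443 to 0.0493). Thus Slc16a3 made up 2.39% ± 0.626 of the summed TPM of both transporters in D2A1 in 2D and 40.8% ± 8.93 in D2.OR in 2D, and 1.57% ± 1.31 and 20.8% ± 6.6 in 3D (SD, n = 3 each; a description with no test).

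Hexokinase traps glucose as glucose 6-phosphate, phosphofructokinase is the committed step, and aldolase splits the sugar into trioses. Hexokinase 1 and platelet-type phosphofructokinase were higher in D2.OR, whereas the other genes of this stretch were lower or did not pass. Hk1 was at 78.1, 67.1 and 88.9 TPM in D2A1 and 167, 126 and 136 TPM in D2.OR in 2D (log2 fold change 1.03, SE 0.11, adjusted p = 0.00011). In 3D its values were 74.7, 52.7 and 51.5 TPM and 114, 86.8 and 93.4 TPM (log2 fold change 0.69, SE 0.11, adjusted p = 0.000847). The lines did not overlap in either culture. Hk2, the isozyme induced in many tumors, was at 12.5, 15.3 and 18.9 TPM in D2A1 and 4.59, 11.95 and 13.45 TPM in D2.OR in 3D, with overlapping groups (log2 fold change -0.74, SE 0.25, adjusted p = 0.032). Its call was lost in the fit with no block, and without batch 1 or 2, D2A1 3D replicate 1 or 3 or D2.OR 3D replicate 1 or 2 (adjusted p = 0.0524 to 0.252). In 2D, Hk2 had a log2 fold change of -0.49 (adjusted p = 0.134) and passed without D2A1 2D replicate 3 (adjusted p = 0.0289).

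The 3 phosphofructokinase genes did not move together between the lines. Pfkp was at 14.4, 38.0 and 43.8 TPM in D2A1 and 40.8, 43.7 and 55.4 TPM in D2.OR in 2D (log2 fold change 0.81, SE 0.21, adjusted p = 0.00989), where the largest gap was in batch 1. Levels in 3D were 20.4, 29.4 and 29.6 TPM and 26.4, 47.9 and 51.6 TPM (log2 fold change 0.57, SE 0.20, adjusted p = 0.0391). The groups overlapped in both cultures, the 2D call was lost in the fit with no block (adjusted p = 0.153), and the 3D call was lost in the fit with no block, and without batch 2 or 3, D2A1 3D replicate 1, 2 or 3 or D2.OR 3D replicate 1, 2 or 3 (adjusted p = 0.0512 to 0.193). Pfkm, the muscle-type gene, was at 77.6, 69.8 and 67.7 TPM in D2A1 and 42.8, 35.1 and 40.6 TPM in D2.OR in 3D (log2 fold change -0.89, SE 0.11, adjusted p = 0.000215). In 2D its values were 66.7, 68.6 and 87 TPM and 48.1, 47.5 and 44.4 TPM (log2 fold change -0.53, SE 0.11, adjusted p = 0.00412), and that call was lost without batch 3 (adjusted p = 0.0603). Pfkl, the liver-type gene and the most abundant of the 3, was at 101, 150.4 and 127 TPM in D2A1 and 64.7, 67.6 and 65.3 TPM in D2.OR in 3D (log2 fold change -0.99, SE 0.13, adjusted p = 0.000278), and overlapped in 2D (log2 fold change -0.11, SE 0.13, adjusted p = 0.528). Pfkp accounted for 11.7% ± 1.46 of phosphofructokinase TPM in D2A1 and 28.1% ± 7.27 in D2.OR in 3D (SD, n = 3).

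Gpi1, which interconverts glucose 6-phosphate and fructose 6-phosphate, averaged 408 ± 26.1 TPM in D2A1 and 248 ± 38.3 TPM in D2.OR in 3D (SD, n = 3; log2 fold change -0.68, SE 0.11, adjusted p = 0.000807). It was also lower in 2D (log2 fold change -0.37, SE 0.11, adjusted p = 0.0191), a call lost in the fit with no block, and without batch 2 or 3, D2A1 2D replicate 3 or D2.OR 2D replicate 2 or 3 (adjusted p = 0.0662 to 0.172). Aldoa, the dominant aldolase gene, averaged 1374 ± 91.9 and 936 ± 141 TPM in 3D (log2 fold change -0.62, SE 0.11, adjusted p = 0.00136). Its 2D call (log2 fold change -0.41, SE 0.11, adjusted p = 0.0133) was lost in the fit with no block, and without batch 2 or 3 or D2.OR 2D replicate 3 (adjusted p = 0.0684 to 0.176). Aldoc, the brain-type aldolase gene, ranged from 1.49 to 23.9 TPM, was highest in batch 1 within every group, and did not pass between the lines in edgeR with all libraries in 2D (log2 fold change -1.35, adjusted p = 0.0682) or 3D (-1.17, adjusted p = 0.103). Without batch 1 it was lower in D2.OR in 2D (log2 fold change -1.71, adjusted p = 0.00853) and in 3D (log2 fold change -2.03, adjusted p = 0.00476). It also passed in limma on log2(TPM + 1) and in the DESeq2 likelihood-ratio test, and without D2A1 2D replicate 1 or D2.OR 3D replicate 1 (adjusted p = 0.0167 to 0.046) in 2D, and without D2A1 2D replicate 1 or D2.OR 3D replicate 1 (adjusted p = 0.00836 to 0.0432) in 3D.

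In 3D, Tpi1, Gapdh, Pgk1, Pgam1, Eno1, Pkm, Ldha and Ldhb, an unbroken run of the pathway, were all lower in D2.OR. Tpi1 (ENSMUSG00000023456.14, chr6:124810586-124814296), the triose phosphate isomerase gene, showed the largest difference of the enzymes in 3D. Its values in 3D were 750.2, 1190.1 and 946 TPM in D2A1 and 267, 309.6 and 324 TPM in D2.OR (log2 fold change -1.69, SE 0.12, adjusted p = 5.9e-06). In 2D they were 675, 855 and 846 TPM and 323, 506 and 482 TPM (log2 fold change -0.74, SE 0.11, adjusted p = 0.000655). The lines did not overlap in either culture, and both calls held under all 21 alternatives. Gapdh, which makes the first NADH of the pathway, was at 3395, 4465 and 4297 TPM in D2A1 and 1086, 1432 and 1628 TPM in D2.OR in 3D (log2 fold change -1.59, SE 0.15, adjusted p = 3.47e-05). In 2D the gap was smaller, at 2600.1, 2594 and 2688 TPM and 1640.3, 1944 and 2001 TPM (log2 fold change -0.42, SE 0.14, adjusted p = 0.0355). The 2D call was lost in the fit with no block, and without batch 2 or 3, D2A1 2D replicate 1, D2A1 3D replicate 3, D2.OR 2D replicate 1, 2 or 3 or D2.OR 3D replicate 2 (adjusted p = 0.0502 to 0.161).

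**Figure D2:**
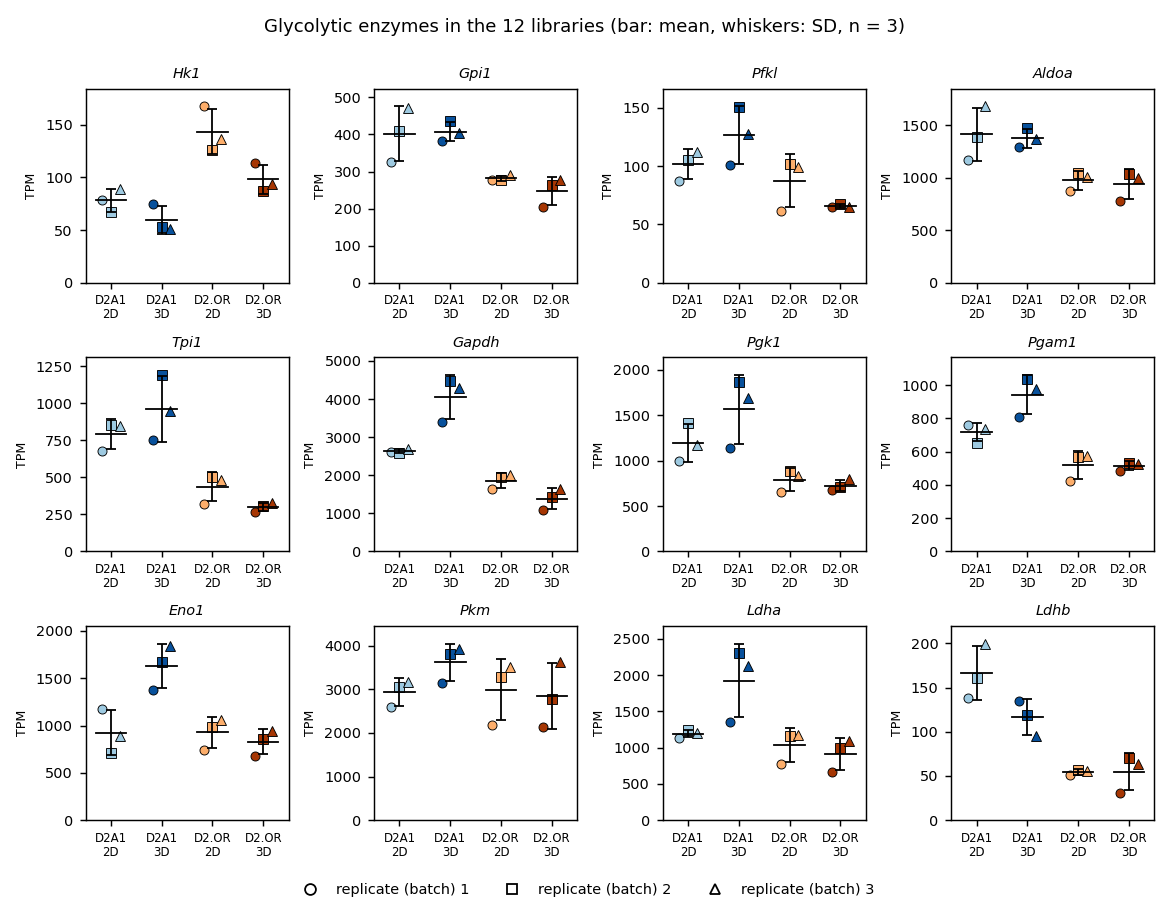
TPM of 12 enzyme genes in each of the 12 libraries, grouped by line and culture; points are libraries, shapes mark batches, and bars and whiskers give the mean and SD of 3 libraries. For Tpi1, Gapdh, Pgk1, Pgam1, Eno1 and Ldha, all D2.OR 3D libraries lie below all D2A1 3D libraries, and Hk1 is the panel in which D2.OR is higher.

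Pgk1, which makes the first ATP, was at 1138, 1863 and 1683 TPM in D2A1 and 674, 706 and 792 TPM in D2.OR in 3D (log2 fold change -1.11, SE 0.13, adjusted p = 0.000147). Its 2D difference was -0.46 on the log2 scale (adjusted p = 0.016), a call lost in the fit with no block, and without batch 2 or 3, D2A1 2D replicate 2 or D2.OR 2D replicate 2 or 3 (adjusted p = 0.0588 to 0.12). Pgam1, the phosphoglycerate mutase gene, averaged 942 ± 118 TPM and 515 ± 26.5 TPM in 3D (SD, n = 3; log2 fold change -0.90, SE 0.13, adjusted p = 0.000532), and did not pass in 2D in edgeR with all libraries (log2 fold change -0.35, adjusted p = 0.0553), although it did in limma on log2(TPM + 1), in limma on log2(TPM + 0.1) and in the DESeq2 likelihood-ratio test, and without D2A1 2D replicate 2 (adjusted p = 0.0115 to 0.0421). Eno1, the main enolase gene, averaged 1631 ± 233 TPM and 827 ± 132 TPM in 3D (log2 fold change -0.98, SE 0.22, adjusted p = 0.00518). This call was lost without batch 3 (adjusted p = 0.0522). In 2D the groups overlapped, with a log2 fold change of 0.13 (adjusted p = 0.653), whereas without batch 1 Eno1 was higher in D2.OR in 2D (log2 fold change 0.53, adjusted p = 0.00299), as it was without D2A1 2D replicate 1 (adjusted p = 0.00213).

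Reads of Eno1 can be shared with Eno1b, a near-identical copy that RSEM listed at 214 to 597 TPM. Eno1 and Eno1b together came to 2166 ± 318 TPM in D2A1 in 3D and 1103 ± 190.0 TPM in D2.OR in 3D (SD, n = 3), so the order of the lines was the same for the sum. Pgam1-ps2, a processed pseudogene of Pgam1, was listed at 30.8 to 82.8 TPM, and the sum with Pgam1 was 1013 ± 131 TPM in D2A1 in 3D and 554 ± 27.7 TPM in D2.OR in 3D. Pgk1-rs7 reached 9.18 TPM. A further gene row named Aldoa did not exceed 1.3 TPM and was left out.

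Eno2 and Eno3, the neuronal and muscle enolase genes, ranged from 19.1 to 85.7 TPM and from 15.5 to 37.1 TPM and did not pass in any comparison in edgeR with all libraries. Without batch 1, Eno2 was lower (log2 fold change -0.78, adjusted p = 0.0212) and Eno3 higher (log2 fold change 0.97, adjusted p = 0.0028) in D2.OR in 2D, and both calls were also made without D2A1 2D replicate 1 (adjusted p = 0.0293 for each). From 2D to 3D in D2A1, DESeq2 called Eno2 lower (log2 fold change -1.01, adjusted p = 0.0341). Pkm, the pyruvate kinase gene of tumor cells, was at 3139.5, 3806 and 3921 TPM in D2A1 and 2135, 2773 and 3632 TPM in D2.OR in 3D (log2 fold change -0.41, SE 0.13, adjusted p = 0.0264). The groups overlapped, and the call was lost in the fit with no block or in limma on log2(TPM + 1), and without batch 2 or 3, D2A1 3D replicate 1 or 2 or D2.OR 3D replicate 1 or 2 (adjusted p = 0.0534 to 0.236). In 2D its log2 fold change was 0.12 (adjusted p = 0.457).

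Lactate dehydrogenase is a tetramer of A and B subunits, of which the A form favors lactate production. Ldha was at 1349, 2299.7 and 2128 TPM in D2A1 and 664, 993 and 1088 TPM in D2.OR in 3D (log2 fold change -1.10, SE 0.16, adjusted p = 0.000388). In 2D the lines overlapped (log2 fold change -0.12, SE 0.16, adjusted p = 0.561). Ldhb was at 139, 161 and 199 TPM in D2A1 and 51.0, 56.6 and 55.8 TPM in D2.OR in 2D (log2 fold change -1.52, SE 0.27, adjusted p = 0.00154). The 3D levels were 135, 119 and 94.7 TPM and 30.8, 70.0 and 63.3 TPM (log2 fold change -1.17, SE 0.27, adjusted p = 0.00545). Ldhb was thus lower in D2.OR in both cultures and Ldha in 3D. Its share of the summed TPM of both was 12.2% ± 1.78 in D2A1 in 2D, 6.1% ± 2.63 in D2A1 in 3D, 5.13% ± 0.932 in D2.OR in 2D and 5.51% ± 1.07 in D2.OR in 3D (SD, n = 3 each).

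As a plain sum, the 18 enzyme genes took 1.28% ± 0.081 of all TPM in D2A1 in 2D and 1.7% ± 0.25 in D2A1 in 3D. In D2.OR they took 1.03% ± 0.17 in 2D and 0.906% ± 0.16 in 3D (SD, n = 3 each). The libraries did not overlap between the lines in either culture, at 1.19% to 1.35% in D2A1 and 0.835% to 1.14% in D2.OR in 2D, and 1.41% to 1.87% and 0.733% to 1.06% in 3D. The 6 cell-cycle markers summed to 768 to 1240 TPM in D2A1 in 3D and 498 to 766 TPM in D2.OR in 3D, against 484 to 695 TPM and 345 to 686 TPM in 2D. In 3D, 3 of the 6 were lower in D2.OR (median log2 fold change -0.70), where 26.1% of all genes were lower. In 2D 1 was lower (24.4% of all genes) and the median was -0.0169, and none of the 6 passed the interaction, which tests the difference between the cultures. From 2D to 3D all 6 had a positive log2 fold change in both lines and none passed. The median was 1 in D2A1, where all 6 had an unadjusted p under 0.05 (31.4% of all genes), and 0.34 in D2.OR, where 1 had. Their part in the enzyme difference was not tested.

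Binding sites of HIF contain the core ACGTG. This core was looked for on both strands in the 250 bases before each RefSeq transcription start (GRCm38.p6). A promoter sequence was matched for 37 of the 40 genes, but not for Slc2a3, Ndrg1 and Epas1. The core was present in a promoter of 22 of the 37 genes (59.5%), against 18.5% of the 27025 genes of the table. A gene with more promoters has more chances of a match. Counted by promoter, the core was in 26 of 57 (45.6%), against 16.6% of the 32851 promoters of the table. The table was not limited to the 16823 genes tested. It was found for 13 of the 21 genes lower in D2.OR in 3D, 4 of the 7 higher genes and 5 of the 9 genes that did not pass, which is 61.9%, 57.1% and 55.6% of them. The list was drawn up from known glycolysis and hypoxia genes, and the letters alone do not show binding. The 5 stretches below run 5′ to 3′ within the 250 bases before a RefSeq start and end earlier where an annotated exon of the gene begins, with each match in capitals. The Ldha stretch belongs to a RefSeq start inside the annotated gene, which begins at chr7:46841475, and of the 2 windows of this gene the one with more matches is shown. The palindrome CACGTG counts once for each strand and is also an E-box. Pgk1 and Ldha are enzyme genes lower in D2.OR in 3D that hold matches (Gpi1, Pfkl, Tpi1, Gapdh, Eno1 and Ldhb were lower too and hold none), Bnip3 and Egln3 are HIF pathway genes lower in both cultures, and Pdk4 is the gene with the largest difference, which holds no match.
Pgk1 (chrX:106186850-106187099, plus strand): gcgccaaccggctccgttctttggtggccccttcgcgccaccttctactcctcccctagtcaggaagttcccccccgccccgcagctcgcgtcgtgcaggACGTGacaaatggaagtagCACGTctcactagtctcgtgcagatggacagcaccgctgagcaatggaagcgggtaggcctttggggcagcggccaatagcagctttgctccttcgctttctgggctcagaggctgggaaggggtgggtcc
Ldha (chr7:46845554-46845803, plus strand): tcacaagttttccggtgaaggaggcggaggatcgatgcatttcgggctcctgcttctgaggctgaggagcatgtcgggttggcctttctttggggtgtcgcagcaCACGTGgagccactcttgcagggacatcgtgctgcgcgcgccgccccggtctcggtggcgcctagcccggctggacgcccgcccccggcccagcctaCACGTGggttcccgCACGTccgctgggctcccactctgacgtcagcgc
Bnip3 (chr7:138909520-138909756, minus strand): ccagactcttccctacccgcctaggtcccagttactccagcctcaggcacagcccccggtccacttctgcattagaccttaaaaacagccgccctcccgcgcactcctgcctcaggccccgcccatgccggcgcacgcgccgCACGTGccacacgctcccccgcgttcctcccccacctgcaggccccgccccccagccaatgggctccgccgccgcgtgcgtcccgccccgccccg
Egln3 (chr12:54203875-54204124, minus strand): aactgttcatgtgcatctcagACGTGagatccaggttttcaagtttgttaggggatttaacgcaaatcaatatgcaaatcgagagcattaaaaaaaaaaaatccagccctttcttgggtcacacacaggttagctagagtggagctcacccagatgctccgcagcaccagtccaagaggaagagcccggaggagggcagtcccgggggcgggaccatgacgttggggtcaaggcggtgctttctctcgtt
Pdk4 (chr6:5496310-5496528, minus strand): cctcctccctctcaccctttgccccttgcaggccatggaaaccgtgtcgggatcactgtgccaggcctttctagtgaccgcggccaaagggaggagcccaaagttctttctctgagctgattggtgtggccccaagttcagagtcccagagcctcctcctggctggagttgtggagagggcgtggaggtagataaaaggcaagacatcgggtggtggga

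The PFKFB enzymes make and break fructose 2,6-bisphosphate, the strongest activator of phosphofructokinase, and Pfkfb3 encodes the isozyme that leans most to the kinase side. Pfkfb3 was at 6.83, 17.3 and 23.1 TPM in D2A1 and 2.31, 9.01 and 9.92 TPM in D2.OR in 2D (log2 fold change -1.10, SE 0.25, adjusted p = 0.00559). Values in 3D were 8.77, 21.0 and 15.9 TPM and 4.51, 9.86 and 7.28 TPM (log2 fold change -1.12, SE 0.25, adjusted p = 0.00446). The groups overlapped, with batch 1 lowest in all 4 of them, while D2.OR was below D2A1 within every batch. The 2D call was lost in the fit with no block (adjusted p = 0.173), and the 3D call was lost in the fit with no block, and without batch 2 (adjusted p = 0.0735 to 0.111).

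In 3D, Pfkfb1 and Pfkfb2 differed in opposite directions. Pfkfb1 was at 5.78, 5.6 and 5.22 TPM in D2A1 and 2.95, 2.79 and 3.1 TPM in D2.OR (log2 fold change -1.01, SE 0.28, adjusted p = 0.0133), a call lost without batch 2 or 3, D2A1 3D replicate 2 or D2.OR 3D replicate 1 (adjusted p = 0.0539 to 0.0898). Pfkfb2 was at 9, 7.1 and 7.37 TPM and 12.8, 11.2 and 10.2 TPM (log2 fold change 0.57, SE 0.11, adjusted p = 0.00187), a call lost without batch 2 (adjusted p = 0.0635). Neither passed in 2D, with log2 fold changes of -0.16 for Pfkfb1 and 0.01 for Pfkfb2. Pfkfb4 ranged from 4.84 to 7.94 TPM and passed in no comparison in edgeR with all libraries, but was higher in D2.OR in 2D without batch 1 (log2 fold change 0.58, adjusted p = 0.00793) and without D2A1 2D replicate 1 (adjusted p = 0.0239).

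The PDK genes split by line, with Pdk4 high in D2.OR and Pdk1 and Pdk3 higher in D2A1. Pdk4 (ENSMUSG00000019577.6, chr6:5483351-5496309), known to be induced by fasting and fatty acids, was at 11.1, 3.34 and 2.61 TPM in D2.OR in 2D and at 46.2, 27.0 and 14.4 TPM in D2.OR in 3D. In D2A1 it was at 0.15, 0.01 and 0 TPM in 2D and 0.06, 0.01 and 0.02 TPM in 3D. D2.OR was higher in 2D (adjusted p = 7.95e-07 in edgeR), where D2A1 held at most 2 counts in a library. On counts scaled for library size, the D2.OR mean was 215 times a floor of 3 counts in D2A1. Without D2.OR 2D replicate 1 it was 111 times that floor. These values are no lower limit in TPM, where batch 1, at 11.1 against 0.15 TPM, gave a smaller fold. In 3D, where D2A1 held 9, 1 and 3 counts, the log2 fold change was 9.79 (SE 0.37, adjusted p = 2.3e-07). On the log2(TPM + 1) scale the differences were 2.45 and 4.73.

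Pdk1, a classical HIF target, was at 17.9, 24.8 and 18.6 TPM in D2A1 and 6.34, 15.7 and 13.4 TPM in D2.OR in 2D (log2 fold change -0.85, SE 0.23, adjusted p = 0.0126). In 3D it was at 18.8, 30.0 and 17.7 TPM and 8.98, 7.33 and 8.18 TPM (log2 fold change -1.62, SE 0.23, adjusted p = 0.000414). The lines did not overlap, and the 2D call was lost in the fit with no block, and without batch 3 or D2.OR 2D replicate 1 (adjusted p = 0.0502 to 0.0944). Pdk3, the most abundant PDK transcript in all libraries but D2.OR 3D replicate 1, was at 69.3, 60.8 and 63.3 TPM in D2A1 and 44.1, 37.3 and 35.2 TPM in D2.OR in 3D (log2 fold change -0.76, SE 0.0979, adjusted p = 0.000232). It was also lower in 2D, at 69.8, 52.9 and 51.3 TPM and 44.6, 41.6 and 40.7 TPM (log2 fold change -0.31, SE 0.0976, adjusted p = 0.0261), a call lost in the fit with no block or with no filter on low counts, and without batch 1, 2 or 3, D2A1 2D replicate 1 or D2.OR 2D replicate 1, 2 or 3 (adjusted p = 0.0599 to 0.136). Pdk2 was at 11.1, 4.32 and 3.48 TPM in D2A1 and 18.1, 16.5 and 12.1 TPM in D2.OR in 3D (log2 fold change 1.33, SE 0.36, adjusted p = 0.0121), a call lost without batch 2, D2A1 3D replicate 2 or 3 or D2.OR 3D replicate 2 (adjusted p = 0.0532 to 0.145), and had a log2 fold change of -0.20 in 2D (adjusted p = 0.659). Of all PDK TPM, Pdk4 made up 7.59% ± 5.63 in D2.OR in 2D and 30.2% ± 9.42 in D2.OR in 3D, and Pdk3 59.2% ± 3.15 and 43.4% ± 6.51 (SD, n = 3 each).

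Bnip3 and Car9, both textbook HIF-1 targets, differed in opposite directions. Bnip3, a mitophagy receptor gene, was at 79.1, 114 and 148 TPM in D2A1 and 23.6, 34.8 and 28.7 TPM in D2.OR in 2D (log2 fold change -1.89, SE 0.22, adjusted p = 0.000133). In 3D it was at 88.2, 164 and 106 TPM and 22.7, 33.1 and 18.4 TPM (log2 fold change -2.29, SE 0.22, adjusted p = 4.33e-05). No D2.OR library reached the lowest D2A1 library. Car9, which encodes carbonic anhydrase IX at the cell surface, was at 0.33, 0.63 and 0.29 TPM in D2A1 and 9.68, 4.82 and 2.47 TPM in D2.OR in 2D (log2 fold change 4.56, SE 0.55, adjusted p = 0.000167). In 3D it was at 0.34, 0.43 and 0.38 TPM and 2.86, 0.77 and 0.76 TPM (log2 fold change 2.23, SE 0.52, adjusted p = 0.00584). All D2.OR libraries were above all D2A1 libraries, and the 3D call was lost in limma on log2(TPM + 1) (adjusted p = 0.086).

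Vegfa, the angiogenic growth factor gene, was at 80.6, 378 and 308 TPM in D2A1 and 58.0, 91.8 and 120.2 TPM in D2.OR in 2D. It was lower in D2.OR (log2 fold change -1.25, SE 0.35, adjusted p = 0.0156), although the batch 1 library of D2A1 lay within the D2.OR range, and the call was lost without batch 2 or 3, D2A1 2D replicate 2 or 3 or D2.OR 2D replicate 2 (adjusted p = 0.0544 to 0.165). In 3D the log2 fold change was -0.89 (adjusted p = 0.0554), and without batch 1 Vegfa was lower in D2.OR (log2 fold change -1.38, adjusted p = 0.00059). It also passed in 3D with no filter on low counts and in the DESeq2 likelihood-ratio test, and without D2A1 2D replicate 1 or 2 or D2.OR 3D replicate 1 (adjusted p = 0.00433 to 0.0432). Ankrd37, Ndrg1 and P4ha1 did not pass between the lines in edgeR with all libraries. Their log2 fold changes in 2D and 3D were 0.76 and -1.01 for Ankrd37, -0.47 and -0.23 for Ndrg1, and 0.35 and -0.08 for P4ha1, the gene of a collagen prolyl hydroxylase subunit. Without batch 1 all 3 passed in both cultures. Ankrd37 was then higher in D2.OR in 2D (log2 fold change 0.76, adjusted p = 0.0291) and lower in 3D (log2 fold change -1.74, adjusted p = 0.000823), where it also passed in the fit with no block and in the DESeq2 likelihood-ratio test, and without D2A1 3D replicate 1 or D2.OR 3D replicate 1 (adjusted p = 0.00701 to 0.0499). P4ha1 was likewise higher in 2D (log2 fold change 0.56, adjusted p = 0.00185) and lower in 3D (log2 fold change -0.29, adjusted p = 0.0305), and Ndrg1 was lower in 2D (log2 fold change -0.51, adjusted p = 0.00881) and in 3D (log2 fold change -0.56, adjusted p = 0.00549). Leaving out 1 library also gave calls, for P4ha1 in 2D without D2.OR 2D replicate 1 (adjusted p = 0.0143) and for Ndrg1 in 3D without D2.OR 3D replicate 1 (adjusted p = 0.0193).

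**Figure D3:**
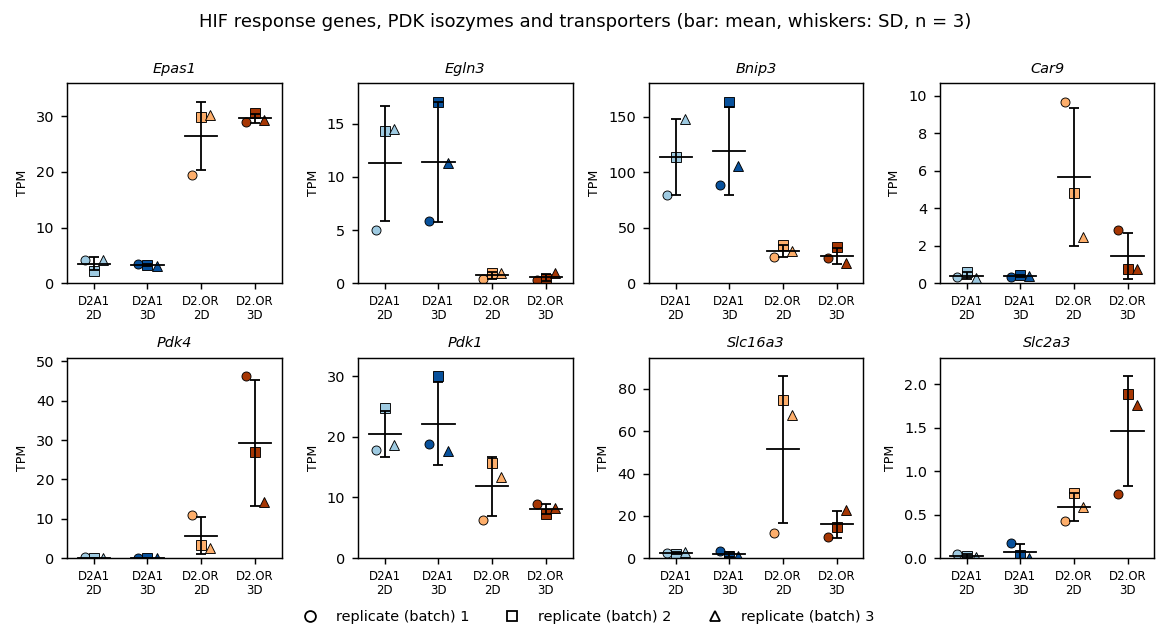
TPM of 8 genes in each of the 12 libraries, with the mean and SD of 3 libraries per group; shapes mark batches. Epas1, Car9, Pdk4, Slc16a3 and Slc2a3 are higher in every D2.OR library than in any D2A1 library of the same culture, and Egln3, Bnip3 and Pdk1 are lower.

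Hif1a did not pass between the lines in edgeR with all libraries, whereas Epas1, which encodes HIF-2α, was higher in D2.OR and Egln3, a prolyl hydroxylase gene that HIF itself induces, was lower. Hif1a ranged from 103 to 193 TPM over all libraries, with log2 fold changes between the lines of 0.33 in 2D (SE 0.18, adjusted p = 0.158) and -0.09 in 3D (SE 0.18, adjusted p = 0.702). Without batch 1, Hif1a was higher in D2.OR in 2D (log2 fold change 0.38, adjusted p = 0.0181) and lower in 3D (log2 fold change -0.39, adjusted p = 0.0158). The same calls were made without D2.OR 3D replicate 1 (adjusted p = 0.0296) in 2D and without D2.OR 3D replicate 1 (adjusted p = 0.0349) in 3D. Epas1 (ENSMUSG00000024140.9, chr17:86753907-86833410) was at 4.23, 2.22 and 4.13 TPM in D2A1 and 19.4, 29.8 and 30.3 TPM in D2.OR in 2D (log2 fold change 3.04, SE 0.26, adjusted p = 2.36e-05). In 3D it was at 3.39, 3.33 and 3.08 TPM and 28.9, 30.6 and 29.3 TPM (log2 fold change 3.15, SE 0.26, adjusted p = 1.73e-05). The lines were far apart in both cultures. Epas1 made up 2.65% ± 1.21 of the TPM of Hif1a, Epas1 and Hif3a in D2A1 in 2D and 13.7% ± 1.08 in D2.OR in 2D, and 2.46% ± 0.628 and 18.7% ± 2.73 in 3D (SD, n = 3 each).

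Egln3 (ENSMUSG00000035105.5, chr12:54178981-54203860) was at 5.06, 14.3 and 14.5 TPM in D2A1 and 0.38, 0.93 and 0.97 TPM in D2.OR in 2D (log2 fold change -3.73, SE 0.29, adjusted p = 1.3e-05). In 3D it was at 5.88, 17.1 and 11.3 TPM and 0.28, 0.43 and 0.95 TPM (log2 fold change -4.41, SE 0.30, adjusted p = 5.79e-06). No D2.OR library exceeded 0.97 TPM, and both calls held under all 21 alternatives. Egln1, the main oxygen-sensing hydroxylase gene, was at 37.3, 43.9 and 41.6 TPM in D2A1 and 54.1, 56.9 and 55.7 TPM in D2.OR in 2D (log2 fold change 0.58, SE 0.16, adjusted p = 0.0154). This call was lost without batch 2 or 3, D2A1 2D replicate 2 or D2.OR 2D replicate 1 or 3 (adjusted p = 0.0544 to 0.0984). In 3D its log2 fold change was 0.31 (adjusted p = 0.13), and it passed without D2A1 3D replicate 2 (adjusted p = 0.0475). Egln3 made up 10.6% ± 4.74 of the TPM of Egln1, Egln2 and Egln3 in D2A1 in 2D and 0.617% ± 0.257 in D2.OR in 2D (SD, n = 3 each).

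Moving D2A1 from 2D to 3D raised Gapdh and Ldha, and no other listed gene passed in edgeR with all libraries. These 2 of 40 genes stand against 1.37% of all genes higher in 3D, and 0 of 40 against 2.12% lower (15 of the 40 had an unadjusted p under 0.05 in either direction, against 31.4% of all genes tested). DESeq2 called 8 higher (9.14% of all genes with an adjusted p), which were these and Tpi1, Pgk1, Pgam1, Eno1, Pkm and Pfkfb1, and 4 lower (12.4%), which were Eno2, Pfkfb2, Pdk2 and Ndrg1. In limma on log2(TPM + 0.1), 2 genes were lower (4.89% of all genes), and Eno1 was higher there (adjusted p = 0.0454) and with no filter on low counts (adjusted p = 0.0346). Gapdh went from 2600.1, 2594 and 2688 TPM to 3395, 4465 and 4297 TPM (log2 fold change 0.67, SE 0.14, adjusted p = 0.0457). Ldha went from 1136, 1244 and 1204 TPM to 1349, 2299.7 and 2128 TPM (log2 fold change 0.75, SE 0.16, adjusted p = 0.0442). For both genes the cultures did not overlap and batch 1 showed the smallest step, with within-batch log2 differences of 0.36, 0.89 and 0.79 for Gapdh and 0.28, 1.04 and 0.97 for Ldha. The call for Gapdh was lost in the fit with no block, and without batch 2 or 3, D2A1 2D replicate 2 or 3, D2A1 3D replicate 2 or 3, D2.OR 2D replicate 1, 2 or 3 or D2.OR 3D replicate 2 or 3 (adjusted p = 0.0522 to 0.538). The call for Ldha was lost in the same 12 alternatives, with adjusted p up to 0.538.

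With batch 1 left out, 14 of the 40 genes were higher in D2A1 in 3D (35.0%, against 17.4% of all genes tested in that fit) and 9 were lower (22.5%, against 18.9%). The higher genes were Tpi1 (log2 fold change 0.46, adjusted p = 0.0169), Gapdh (log2 fold change 0.84, adjusted p = 0.00139), Pgk1 (log2 fold change 0.61, adjusted p = 0.00683), Pgam1 (log2 fold change 0.69, adjusted p = 0.00183), Eno1 (log2 fold change 1.25, adjusted p = 0.000302), Pkm (log2 fold change 0.45, adjusted p = 0.0196) and Ldha (log2 fold change 1.004, adjusted p = 0.000534), together with Slc2a1, Slc16a1, Pfkl, Pfkfb1, Pdk3, Ankrd37 and Egln1. The lower genes were Slc16a3, Hk1, Aldoc, Eno2, Ldhb, Pfkfb2, Pdk2, Vegfa and Ndrg1, with Pdk2 (log2 fold change -1.73, adjusted p = 0.00582) and Aldoc (log2 fold change -1.31, adjusted p = 0.0344) falling furthest. Leaving out only D2A1 2D replicate 1 gave 10 higher and 7 lower (15.3% and 15% of all genes), and leaving out only D2A1 3D replicate 1 gave 7 higher and 1 lower (4.9% and 7.9%). In the fits without batch 2 or without batch 3 none of the 40 and 0% of all genes passed.

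Pdk4 rose in D2.OR in 3D, and Hk1 and Tpi1 fell. This is 1 of 40 genes higher (0.838% of all genes tested) and 2 of 40 lower (0.785%). DESeq2 called 5 lower (4.01% of all genes with an adjusted p), with Pfkl, Gapdh and Car9 added, and limma called 0 lower on log2(TPM + 1) (0.695% of all genes) and on log2(TPM + 0.1) (0.446%). Pdk4 went from 11.1, 3.34 and 2.61 TPM to 46.2, 27.0 and 14.4 TPM, and every 3D library was above every 2D library (log2 fold change 2.38, SE 0.24, adjusted p = 0.00623). The within-batch log2 differences were 1.83, 2.86 and 2.41. Its call was lost in the fit with no block, and without batch 2 or 3, D2.OR 2D replicate 2 or 3 or D2.OR 3D replicate 2 (adjusted p = 0.0563 to 0.443). The adipocyte markers also rose from 2D to 3D in D2.OR, and 1 of the 2 tested passed (0.838% of all genes). Their summed level of 3 genes was 0.24 to 3.07 TPM in D2.OR in 2D and 8.45 to 77.1 TPM in D2.OR in 3D, mostly from Plin1, a lipid-droplet gene, at 6.33, 75.0 and 21.5 TPM in 3D, while the defining gene Adipoq was at 0.16, 2.03 and 0.35 TPM in those 3 libraries. The order of the batches differed, since Plin1 was lowest and Pdk4 highest in batch 1. Both tested adipocyte markers were also higher in D2.OR than in D2A1, in 2D (25.4% of all genes) and in 3D (27.7%). The part of these markers, or of cells that express them, was not tested.

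Hk1 went from 167, 126 and 136 TPM to 114, 86.8 and 93.4 TPM in D2.OR (log2 fold change -0.59, SE 0.11, adjusted p = 0.0419). The cultures did not overlap, and all 3 batches moved by a like amount, -0.67, -0.57 and -0.54 on the log2 scale. Tpi1 went from 323, 506 and 482 TPM to 267, 309.6 and 324 TPM (log2 fold change -0.57, SE 0.11, adjusted p = 0.0446), with within-batch differences of -0.40, -0.74 and -0.58. Both adjusted p-values were close to 0.05. The call was lost for Hk1 in the fit with no block, in limma on log2(TPM + 1) or in limma on log2(TPM + 0.1), and without batch 2 or 3, D2A1 2D replicate 2, D2A1 3D replicate 2 or 3, D2.OR 2D replicate 1, 2 or 3 or D2.OR 3D replicate 1, 2 or 3 (adjusted p = 0.0528 to 0.596). For Tpi1 it was lost in the fit with no block, in limma on log2(TPM + 1) or in limma on log2(TPM + 0.1), and without batch 2 or 3, D2A1 2D replicate 2 or 3, D2A1 3D replicate 2 or 3, D2.OR 2D replicate 1, 2 or 3 or D2.OR 3D replicate 1, 2 or 3 (adjusted p = 0.0545 to 0.588). Car9 came near the threshold, from 9.68, 4.82 and 2.47 TPM to 2.86, 0.77 and 0.76 TPM (log2 fold change -2.19, SE 0.47, adjusted p = 0.056), and passed in DESeq2 (adjusted p = 0.00103) and with no filter on low counts (adjusted p = 0.024).

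Without batch 1, 2 genes were higher in D2.OR in 3D (5.0%, against 3.69% of all genes tested in that fit) and 12 were lower (30.0%, against 4.7%). The higher genes were Pdk4 (log2 fold change 2.65, adjusted p = 0.00143) and Slc2a3 (log2 fold change 1.43, adjusted p = 0.0447). Among the lower ones were Car9 (log2 fold change -2.54, adjusted p = 0.00733), Slc16a3 (log2 fold change -1.94, adjusted p = 0.00261), Ankrd37 (log2 fold change -1.41, adjusted p = 0.0167), Ndrg1 (log2 fold change -1.11, adjusted p = 0.0039), Pdk1 (log2 fold change -1.06, adjusted p = 0.012), P4ha1 (log2 fold change -0.83, adjusted p = 0.0042) and Hif1a (log2 fold change -0.62, adjusted p = 0.0168). The others were Slc2a1, Hk1, Pfkl, Tpi1 and Eno2. Without batch 2 or batch 3, none of the 40 passed in D2.OR, against 0% and 0.00589% of all genes.

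**Figure D4:**
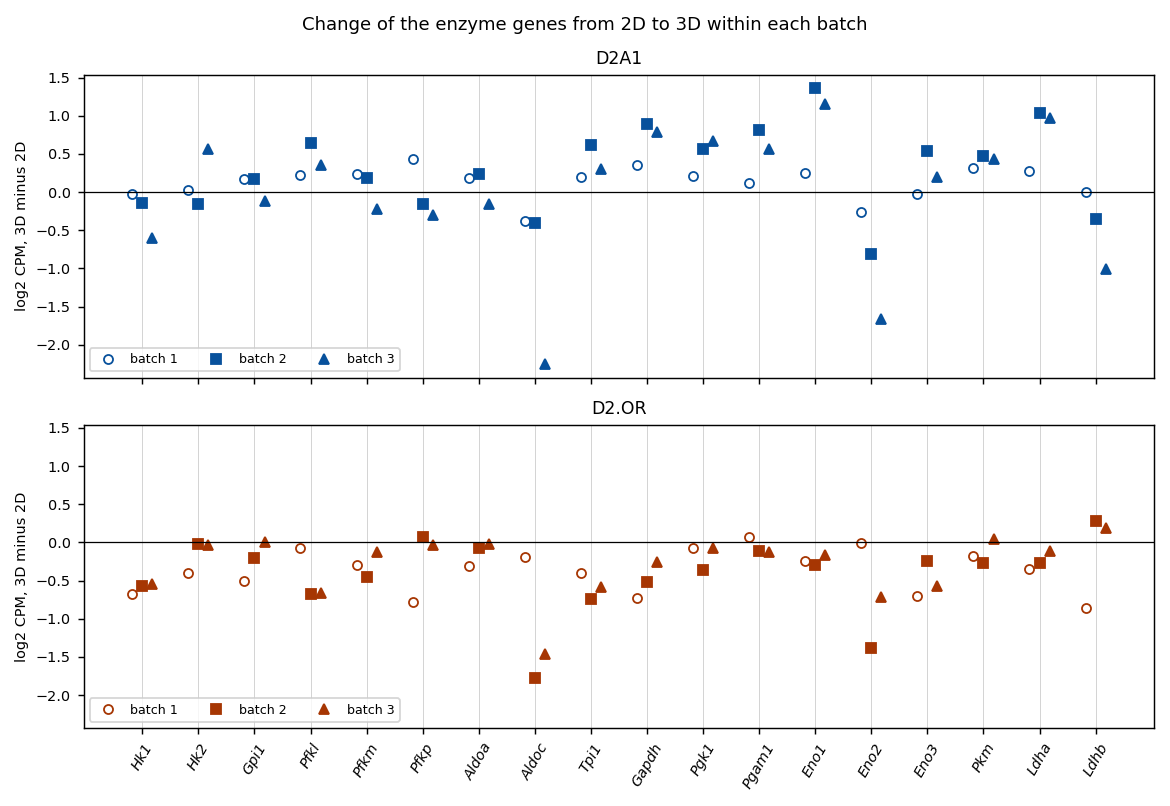
Change of the 18 enzyme genes from 2D to 3D within each batch, as a difference of log2 CPM, in D2A1 (top) and D2.OR (bottom); open circles are batch 1. For Tpi1, Gapdh, Pgk1, Pgam1, Eno1, Pkm and Ldha all 3 batches lie above 0 in D2A1, with batch 1 lowest, and for Tpi1 and Gapdh all 3 lie below 0 in D2.OR.

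The interaction asks whether a gene moved differently from 2D to 3D in D2.OR than in D2A1. With all batches, 0 of the 40 genes passed in edgeR in either direction, where 0.0178% of all genes were higher and 0.00594% lower. At an unadjusted p under 0.05 there were 16 (17.8% of all genes), and the DESeq2 likelihood-ratio test called 1 higher (3.47% of all genes with an adjusted p) and 7 lower (2.35%). The smallest p-values were those of Tpi1 (log2 fold change -0.95, SE 0.16, adjusted p = 0.0822), Gapdh (log2 fold change -1.17, SE 0.20, adjusted p = 0.0892) and Pfkl (log2 fold change -0.88, SE 0.18, adjusted p = 0.101). With no filter on low counts, Tpi1 (adjusted p = 0.0329) and Gapdh (adjusted p = 0.0292) passed, against 0.137% of all genes. For each of these genes the value was negative in all 3 batches, with within-batch differences of -0.60, -1.36 and -0.89 for Tpi1, -1.10, -1.41 and -1.05 for Gapdh and -0.31, -1.31 and -1.02 for Pfkl. On the log2 CPM scale the step from 2D to 3D was positive in D2A1 and negative in D2.OR for all 3 genes in every batch, although Pfkl in batch 1 of D2.OR went from 61.4 to 64.7 TPM.

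Without batch 1, the interaction passed for 17 of the 40 genes in the negative direction (42.5%, against 8.64% of all genes tested in that fit) and for 3 in the positive direction (7.5%, against 9.17%). The 17 were Slc2a1, Slc16a1, Slc16a3, Pfkl, Tpi1, Gapdh, Pgk1, Pgam1, Eno1, Ldha, Pfkfb1, Pdk1, Pdk3, Car9, Ankrd37, P4ha1 and Hif1a. Among the 18 enzymes from hexokinase to lactate dehydrogenase the largest was Eno1 (log2 fold change -1.49, adjusted p = 0.00248), followed by Gapdh (log2 fold change -1.23, adjusted p = 0.00436) and Ldha (log2 fold change -1.19, adjusted p = 0.00372), and Ankrd37 (log2 fold change -2.51, adjusted p = 0.00555) and Car9 (log2 fold change -2.56, adjusted p = 0.0223) had the largest values overall. The 3 positive genes were Ldhb (log2 fold change 0.92, adjusted p = 0.028), Pfkfb2 (log2 fold change 0.64, adjusted p = 0.0437) and Pdk2 (log2 fold change 2.30, adjusted p = 0.0156). Leaving out only D2A1 2D replicate 1 gave 2 positive and 9 negative calls (6.41% and 8.08% of all genes), and leaving out only D2A1 3D replicate 1 gave 6 negative calls (0.904% of all genes). In the fits without batch 2 or batch 3 none of the 40 passed, and 0% of all genes did.

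Of 50 further glycolysis and HIF pathway genes, 38 were tested. Between the lines, 8 were higher and 15 lower in D2.OR in 2D (25.4% and 24.4% of all genes), and 10 were higher and 14 lower in 3D (27.7% and 26.1% of all genes), with median log2 fold changes of -0.23 and -0.25. The 3 with the smallest p were the same in both cultures. Car12, a second membrane carbonic anhydrase gene, was higher in D2.OR in 2D (log2 fold change 7.19, SE 0.38, adjusted p = 1.4e-06) and in 3D (log2 fold change 6.69, SE 0.37, adjusted p = 1.77e-06). Plod2, a collagen lysyl hydroxylase gene, was lower in 2D (log2 fold change -2.01, SE 0.15, adjusted p = 1.1e-05) and in 3D (log2 fold change -2.46, SE 0.15, adjusted p = 3.6e-06), as was Arnt2, which encodes a possible HIF partner subunit, with log2 fold changes of -2.78 (adjusted p = 2.83e-05) and -3.05 (adjusted p = 1.65e-05).

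From 2D to 3D, 1 of the 38 further genes passed in D2.OR, in the lower direction (0.785% of all genes), and none in D2A1 (1.37% of all genes higher and 2.12% lower). In D2A1, 10 of the 38 had an unadjusted p under 0.05, against 31.4% of all genes. Gys1, the muscle-type glycogen synthase gene, fell in D2.OR from 42.5, 44.4 and 44.2 TPM to 32.0, 32.0 and 33.1 TPM (log2 fold change -0.51, SE 0.0929, adjusted p = 0.0377). The next in D2.OR were Mpc2 (log2 fold change 0.996, adjusted p = 0.0559), a mitochondrial pyruvate carrier gene, and Pgm1 (-0.36, adjusted p = 0.074). In D2A1 they were Adm (-1.87, adjusted p = 0.0539), Plod1 (-0.54, adjusted p = 0.0557) and Arnt (-0.43, adjusted p = 0.0594). No interaction passed, and the smallest p-values belonged to Gys1 (-0.54, adjusted p = 0.126), Adm (2.01, adjusted p = 0.162) and Fam162a (-0.62, adjusted p = 0.184).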

How the data were processed

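RNA was sequenced from 12 libraries, 3 for each of 4 groups of cell line and culture. The authors trimmed reads with Trimmomatic 0.32, aligned them with STAR 2.5.3 to GRCm38 and quantified GENCODE genes with RSEM 1.3.0 (versions from the submitters' processing notes). The deposited library files hold expected counts per gene, which are not normalized, and TPM and FPKM, which the authors' RSEM run scaled for gene length and library size. The deposited series table repeats the TPM values. FPKM was not used. RSEM divides reads between near-identical genes, which makes levels of such genes uncertain.

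Expected counts were rounded and fitted together in edgeR 4.0.16 (R 4.3.3) with TMM factors, its filter on low counts, group terms and a batch block. The quasi-likelihood test was used, with Benjamini-Hochberg adjustment over 16823 genes and a threshold of 0.05. Biological variation, as the common coefficient over genes, came to 21.2%. The SE is the absolute log2 fold change divided by the square root of F. Log2 CPM has a prior count of 2, and the floor of a group is 3 counts per library. Floors cover counting error only. The script was tested on simulated counts with known changes.

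The study gives the replicate number as the batch, and its model holds a batch term. As a check of this pairing, deviations from group means correlated by 0.076 to 0.51 (median 0.27) in 18 same-batch pairs and with a median of -0.19 in 36 other pairs. The 40 genes and all lists were chosen with earlier results of these data known. Genes given in full were, by comparison, up to 10 that passed, by size of log2 fold change, isozymes that differed in opposite directions, and the 3 smallest p-values where none passed. Of the further pathway genes, the 3 with the smallest p were named. Alternatives were no block, DESeq2 1.42.0, its size factors, no filter, limma 3.58.1 on log2(TPM + 1) and log2(TPM + 0.1), and leaving out each batch or library. The comparison of batch 1 with the others, the calls gained under alternatives and the fold of Pdk4 over the floor without single libraries were added after the values were seen. Promoters came from RefSeq (GRCm38.p6), and gene positions and exons from GENCODE on GRCm38.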

Additional observations from a re-analysis of the deposited data

How the results depend on the processing

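No called difference changed sign under any alternative run. Between the lines, 974 of 1071 recomputed results of called genes stayed on the same side of the threshold, and in 3D the counts moved by over 1.5 times only without batch 2, where 5 genes were higher. Calls from 2D to 3D were mostly lost, since 28 recomputed results stayed and 35 were lost in D2.OR, and 18 stayed and 24 were lost in D2A1. With no replicate block, the count lower in D2.OR in 2D was 6, and all 3 counts of the culture comparisons that were above 0 fell to 0, whereas the interaction stayed at 0. The block changed no other count by over 1.5 times. From 2D to 3D, DESeq2 called 5 genes lower in D2.OR, 8 higher and 4 lower in D2A1, and 1 higher and 7 lower in the interaction. With limma on log2(TPM + 1) and on log2(TPM + 0.1), 0 genes fell from 2D to 3D in D2.OR, and on log2(TPM + 0.1) 2 fell in D2A1. With no filter on low counts, 2 genes were lower in the interaction. The cause of these changes was not tested.

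Leaving out a batch or a library gave 6 to 14 genes higher and 5 to 15 lower in D2.OR in 2D, and 5 to 9 higher and 15 to 26 lower in 3D. From 2D to 3D it gave 0 to 2 higher and 0 to 12 lower in D2.OR, 0 to 14 higher and 0 to 9 lower in D2A1, and 0 to 3 higher and 0 to 17 lower in the interaction. The upper ends of the culture counts came from leaving out batch 1, and each fit without a batch rests on 8 libraries. Low counts in D2A1, at most 9 per library for Pdk4, 16 for Slc2a3 and 21 for Car9, limit the precision of their fold changes.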
